A study of Mus musculus with 9 samples.

Results

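The transcripts described here are 8 of the 16 RNAs encoded in the mitochondrial genome for which the deposited tables hold a row. They are both mitochondrial ribosomal RNAs (mt.Rnr1 and mt.Rnr2) and the messenger RNAs for 3 subunits of complex IV (mt.Co1, mt.Co2 and mt.Co3), for cytochrome b of complex III (mt.Cytb) and for a pair of subunits of the ATP synthase (mt.Atp6 and mt.Atp8). They were taken by symbol, 8 of 15779 genes in the tables, and were chosen by measured values in part: mt.Rnr1 ranked 13 of 13636 genes by p-value between treated and saline mutant hearts. Values from that comparison are therefore given as a description, with no test. Each group of mutants enters 1 comparison with wild type as well, so the tests of those comparisons share 3 libraries with the choice and are not independent of it, for mt.Rnr1 above all. The other mitochondrial rows are 7 complex I subunits and 1 transfer RNA.

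Poly(A) RNA was sequenced from hearts of adult C57BL/6J mice, in 9 libraries and 3 groups of 3. Wild-type mice were given saline; mice with genotype Mybpc3R946X/R946X, which carry the premature stop codon R946X on both copies of Mybpc3, were given either saline or a treatment named high-dose-exABE8e. Mybpc3 encodes cardiac myosin-binding protein C, and the study's design text describes adenine base editors delivered by AAV9 for expression in cardiomyocytes. The labels gave neither a dose in numbers nor the sex or age of the animals, and nothing in them says whether replicates came from separate animals, so p-values measure the spread between these samples.

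The mitochondrial genome is a small circle read from both strands as long precursor RNAs, which are cut at the transfer RNAs that separate most of the genes. Its products are the pair of ribosomal RNAs of the mitochondrial ribosome and the messages of 13 proteins, all of them subunits of the respiratory chain or ATP synthase, and the heart is among the tissues richest in mitochondria. Mitochondrial messages carry short poly(A) tails, and the ribosomal RNAs carry still shorter ones, so that both can be captured on oligo(dT) beads.

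Library totals lay between 999152 and 999382 and the 16 mitochondrial rows made up 20.0% to 24.1% of the wild-type totals, 17.0% to 20.9% of the saline mutant totals and 17.6% to 20.7% of the treated totals. Values are whole numbers on a scale that sums to nearly the same total in each library; whether they were divided by transcript length is not given in the sources used here, and sequencing depth is unknown. The values of Mybpc3, a check of the labels, ran from 133 to 186 in saline mutants, below treated mutants (1024 to 1374) and wild type (1510 to 2039). All 8 cardiomyocyte markers were present, with summed values of 46262 to 54966 in wild type, 47459 to 58415 in saline mutants and 50238 to 54263 in treated mutants. Fibroblast markers (5 of 5 present) summed to 1418 to 2036, 2237 to 3582 and 1626 to 2239 in the same order, blood markers (5 of 5) to 104 to 313, 69 to 85 and 140 to 158, endothelial markers (4 of 4) to 740 to 1079, 654 to 757 and 678 to 802, and macrophage markers (4 of 4) to 93 to 123, 107 to 186 and 104 to 128. Fibroblast markers were thus highest and blood markers lowest in saline mutants, without overlap with wild type. Of the atrial markers, Myl4 and Nppa were listed and summed to 43 to 62, 359 to 1494 and 158 to 258, with Myl4 at 5 or less in each library. Adipose, skeletal muscle and neutrophil markers summed to 2 or less in each library; 1 of 4, 2 of 5 and 2 of 4 of them had a row. The part of these shifts in the results below was not tested, and in whole-heart RNA fewer cells of a type and less RNA per cell cannot be told apart. Xist was above 0 in wild-type replicate 1, saline mutant replicate 3 and treated replicate 1, so each group holds 1 library with it.

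Several of these genes have near-identical copies in nuclear DNA, and the sequences are shown because they bear on what a value for these genes counts. Positions are on GRCm38, the assembly also called mm10 that the submitters' processing notes name, with gene models of GENCODE M21. On chromosome 1, from 24611535 to 24616197, 7 annotated pseudogenes follow the mitochondrial genome in the same order on the minus strand, with at most 1 base of shift along the block. The copy of mt.Co3, Gm28437 (chromosome 1, 24613189 to 24613971), is identical to it over 783 of its 784 bases. The copy of mt.Co2, Gm28661 (24614885 to 24615565), is identical over 681 of 684 bases, and the copy of mt.Atp6, Gm10925 (24613974 to 24614651), over 678 of 681 bases. Gm29216 (24615706 to 24616197) copies the last 483 bases of mt.Co1 with a single mismatch, A1066T, counted from the first base of mt.Co1. That mismatch is in capitals in the first pair of sequences, and the next 3 lines give the first 60 bases of the genes that are identical in their copies.
mt.Co1, chrM:6390-6423, plus strand: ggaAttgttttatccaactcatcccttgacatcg
Gm29216, chr1:24616155-24616188, minus strand: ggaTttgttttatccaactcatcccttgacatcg
mt.Co2 and Gm28661, chrM:7013-7072, plus strand: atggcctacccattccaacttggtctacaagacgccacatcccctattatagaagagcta
mt.Atp6 and Gm10925, chrM:7927-7986, plus strand: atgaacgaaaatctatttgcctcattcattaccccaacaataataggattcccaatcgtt
mt.Co3 and Gm28437, chrM:8607-8666, plus strand: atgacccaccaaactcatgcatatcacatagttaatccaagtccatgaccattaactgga

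The gene for mt.Atp8 lies between mt.Co2 and mt.Atp6, where the chromosome 1 block has 233 bases with no annotated pseudogene, as many as separate the aligned stretches in mitochondrial DNA; the genome sequence of that gap was not used here. mt.Rnr1 had no annotated nuclear transcript aligning over 100 bases or more. mt.Rnr2 matched only Gm20594 on chromosome 6, at 88.38% over 439 aligned bases. mt.Cytb matched Gm11410 on chromosome 4 at 92.91% over 1142 aligned bases and mt.Co1 matched Gm13340 on chromosome 2 at 97.61%. For the ribosomal RNAs, mt.Cytb and mt.Atp8, no annotated copy reached 99% identity over 100 bases or more. The values of mt.Co2, mt.Co3 and mt.Atp6 are uncertain, since the counting could split their reads.

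The ends of these genes are shown next, because the tail that oligo(dT) beads bind is added there. In mt.Co3 and mt.Cytb the encoded sequence stops after the first base of the last codon (a single T, in capitals), so that the stop codon is completed by the tail, while mt.Co1, mt.Co2, mt.Atp6 and mt.Atp8 encode a whole TAA. The ribosomal RNAs have no codon to mark.
mt.Rnr1, chrM:995-1024, plus strand: aagcatactggaaagtgtgcttggaataat
mt.Rnr2, chrM:2646-2675, plus strand: atacgtacaccctctaacctagagaaggtt
mt.Co2, chrM:7667-7696, plus strand: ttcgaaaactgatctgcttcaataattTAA
mt.Co3, chrM:9361-9390, plus strand: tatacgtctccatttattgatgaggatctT
mt.Cytb, chrM:15259-15288, plus strand: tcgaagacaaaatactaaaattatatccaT
mt.Atp8 and mt.Atp6 are read from the same message in overlapping frames, and the 43 bases they share run from the start codon of mt.Atp6 to the stop codon of mt.Atp8, both in capitals.
mt.Atp8 and mt.Atp6, chrM:7927-7969, plus strand: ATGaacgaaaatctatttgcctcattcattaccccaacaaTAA

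Levels differed widely among the 8 RNAs. Per kb of transcript, the mean over 9 libraries was highest for mt.Co1 (57880 ± 5644, SD over 9 libraries) and mt.Cytb (26643 ± 3383), which did not overlap with each other or with any other of the 8. The levels per kb of mt.Co2 (3029 ± 814), mt.Rnr2 (2810 ± 413) and mt.Co3 (2758 ± 945.6) were not separated: mt.Co2 was above mt.Rnr2 in 5 of 9 libraries, and mt.Rnr2 above mt.Co3 in 4 of 9. On the deposited scale they were separated, since mt.Rnr2 (3554 to 5275) was above mt.Co2 (1488 to 2965) and mt.Co3 (1361 to 3444) in the full range of the 9 libraries. mt.Rnr1 (1735 ± 371) and mt.Atp6 (1539 ± 427) overlapped as well, with mt.Rnr1 higher in 6 of 9. mt.Atp8 was lowest, at 236 ± 110 per kb, and below mt.Atp6 in 9 of 9 libraries.

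The 3 subunits of complex IV are needed in equal numbers, but the value per kb of mt.Co1 exceeded those of mt.Co2 and mt.Co3 in each library. Each gene was cut into all its windows of 50 bases, and the share of windows also present, letter for letter, in an annotated nuclear transcript was counted. It was 100% for mt.Co2, 99.9% for mt.Co3, 99.5% for mt.Atp6 and 51.1% for mt.Co1, against 1.04% for mt.Rnr2 and 0% for mt.Rnr1, mt.Cytb and mt.Atp8, whose gap on chromosome 1 holds no annotated transcript. Over the 13 protein-coding mitochondrial transcripts, the 5 with at least 90% of windows in a nuclear transcript (these 3, mt.Nd3 and mt.Nd4l) had mean values per kb of 424 to 3029. mt.Atp8, with 0% of such windows, goes against any order by this share: at 236 per kb its mean was below all 5. The remaining 7 transcripts lay at 3867 to 57880 per kb, above all 5 on the mean of 9 libraries. In the treated group alone they did not, since mt.Nd6 (2443 per kb) was below mt.Co2 (2600) and mt.Co3 (2605). The ribosomal RNAs mt.Rnr1 (1735 per kb) and mt.Rnr2 (2810), with few or no such windows, also lay inside the range of the 5. On the deposited scale, not divided by length, the sets overlapped: the 5 had means of 148 to 2162 and the 7 had means of 2007 to 89424. The comparison of the 5 with the 7 is a description across 12 of the 13 coding genes, in the same libraries, and leaves out mt.Atp8. Read length, which sets how much of a gene a single read can tell apart, is not given in the sources used here.

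**Figure D1:**
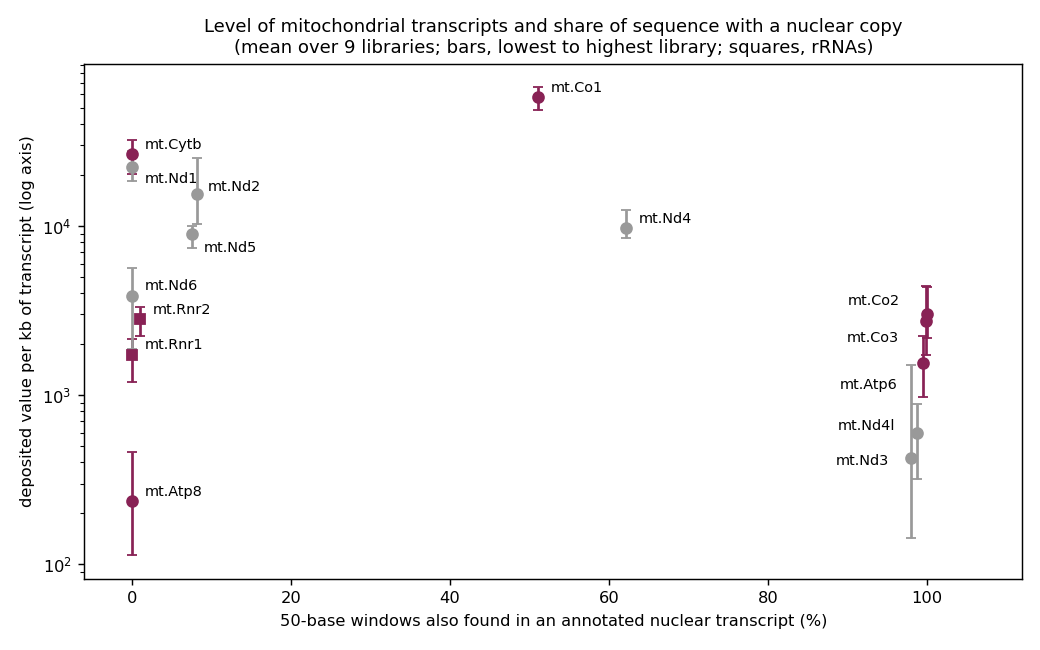
Mean deposited value per kb of transcript over 9 libraries (log axis; bars run from the lowest to the highest library) against the percent of 50-base windows also found in an annotated nuclear transcript, for the 8 RNAs (purple; squares are rRNAs) and 7 complex I transcripts (grey). The 5 coding transcripts at 98% or more lie at or under 3029 per kb, and mt.Atp8 at 0% lies lowest, at 236 per kb.

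In saline mutants against wild type, 2 of the 8 RNAs passed the test, mt.Rnr1 and mt.Co3, and both fell; 7.7% of 13632 genes were called, 4.56% as higher and 3.14% as lower. The groups did not overlap in 3 of the 8, all lower, where 21.6% of all genes did not overlap and 8.78% were also lower. All 8 log2 fold changes were below 0, with a median of -0.31 beside a median of 0.07 over all genes tested, and 3 of the 8 (mt.Co2, mt.Cytb and mt.Atp8) were above 0 without the libraries with Xist. In treated mutants against wild type, limma called 0 of the 8, where 0.989% of 13554 genes were called; 2 of the 8, mt.Co2 and mt.Atp8, had an unadjusted p under 0.05. There mt.Rnr2 was higher and mt.Atp8 lower without overlap (2 of the 8), where 14.6% of all genes did not overlap, 9.13% as higher and 5.43% as lower. The median of the 8 was -0.34 beside 0.01 over all genes, and the wild-type libraries serve in both comparisons.

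Between treated and saline mutants, the contrast used in choosing the RNAs, 0.0147% of 13636 genes were called, 0.00733% in each direction. The groups did not overlap in 4 of the 8, with mt.Rnr1, mt.Rnr2 and mt.Co1 higher and mt.Atp8 lower; 9.82% of all genes did not overlap, 5.48% as higher and 4.34% as lower. Nothing is read from this count, since the choice used that contrast.

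The small-subunit ribosomal RNA mt.Rnr1 (chromosome M, 70 to 1024) was lower in saline mutant hearts than in wild type, and treated hearts were at the wild-type level. Its values were 1876, 1652 and 2051 in wild-type libraries, 1225, 1143 and 1251 in saline mutants, and 1907, 1892 and 1916 with treatment. Each saline mutant was below each library of the other groups, and the treated libraries lay inside the wild-type range. The saline mutant mean (1206 ± 56.4, SD, n = 3) was 64.9% of that in wild type, a log2 fold change of -0.62 (SE 0.116), with a limma adjusted p of 0.0132. The saline mutant values in this test are among those that chose the gene, so it is no independent support for the difference. Adjusted p-values over 18 alternatives ranged from 0.00453 to 0.0874, and 16 of them called it; the calls were lost without wild-type replicate 3 (0.0622) and without saline mutant replicate 2 (0.0874). Without the 2 libraries of this comparison that have Xist the adjusted p was 0.0458. Treated mutants differed from wild type by 0.04 (SE 0.107, limma adjusted p 0.938), a difference below the spread between replicates whose sign turned with 3 of 18 alternatives. Between treated and saline mutants, the comparison that helped choose it, the log2 fold change was 0.66 (SE 0.102).

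The large-subunit ribosomal RNA mt.Rnr2 (chromosome M, 1094 to 2675) was 4335, 4059 and 4804 in wild type, 4183, 3554 and 3607 in saline mutants, and 5275, 5227 and 4962 with treatment. The treated libraries were above all libraries of both saline groups, and the saline groups overlapped. Against wild type, saline mutants differed by -0.22 (SE 0.129, limma adjusted p 0.406) and treated mutants by 0.23 (SE 0.106, limma adjusted p 0.425); neither was called in any of 18 alternatives. Treated against saline mutants, it was 0.45 (SE 0.127).

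Each ribosome needs the ribosomal RNAs in equal numbers, and mt.Rnr1 lies next to the start of the precursor that holds both. The ratios below are of deposited values, not divided by length (955 bases for mt.Rnr1 and 1582 for mt.Rnr2). They are therefore read between groups only, not as numbers of molecules. The ratio of mt.Rnr1 to mt.Rnr2 was 0.433, 0.407 and 0.427 in wild type, 0.293, 0.322 and 0.347 in saline mutants, and 0.362, 0.362 and 0.386 with treatment. The 3 groups did not overlap: saline mutants were lowest (0.32 ± 0.027), treated mutants between (0.37 ± 0.0141) and wild type highest (0.422 ± 0.0135). As a share of all mitochondrial rows, mt.Rnr1 took 0.778% to 0.947% in wild type. It took 0.586% to 0.736% in saline mutants and 0.92% to 1.07% in treated mutants, so that the saline mutants were lowest here too. Ratios and shares that hold mt.Rnr1 reuse the values that chose it, so they are no independent support for a difference. Both ribosomal RNAs together, over the 13 protein-coding transcripts, came to 2.64% to 3.27% in wild type, 2.52% to 2.94% in saline mutants and 3.59% to 4.21% in treated mutants, where the treated libraries stood above both saline groups.

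**Figure D2:**
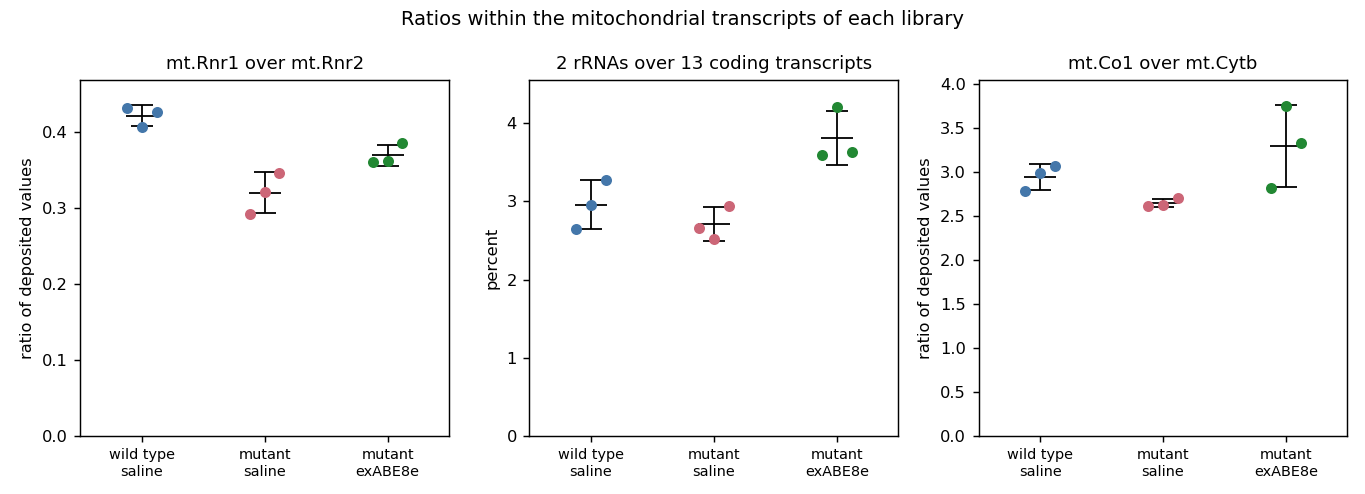
Ratios of deposited values within each library (points), with group mean and SD bars (n = 3): mt.Rnr1 over mt.Rnr2, the 2 ribosomal RNAs over the 13 protein-coding transcripts in percent, and mt.Co1 over mt.Cytb. The first ratio separates all 3 groups, with saline mutants at 0.293 to 0.347, and the second separates treated mutants, at 3.59% to 4.21%.

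mt.Co3 (chromosome M, 8607 to 9390), the third core subunit of complex IV, was the other RNA of the 8 that fell in saline mutants. It was 3444, 2248 and 2896 in wild type, 1498, 1399 and 1848 in saline mutants, and 2799, 1361 and 1966 with treatment. Saline mutants lay below all wild-type libraries, while treated mutants spread over both groups. The saline mutant mean was 55.3% of that in wild type (1582 ± 236 against 2863 ± 599, SD, n = 3), a log2 fold change of -0.84 (SE 0.177, limma adjusted p 0.0221). The call held in 13 of 18 alternatives (adjusted p from 0.00983 to 0.111) and was lost when wild-type replicate 1 was left out (0.0799), when wild-type replicate 3 was (0.0731) and when saline mutant replicate 2 was (0.111). It was lost too with limma's trend and no rounding floor (0.0829) and with 1 fit over all 9 libraries (0.071). Without the libraries with Xist the adjusted p was 0.029. Treated mutants differed from wild type by -0.53 (SE 0.269, limma adjusted p 0.484) and from saline mutants by 0.32 (SE 0.243). With 1 library left out these values ran from -0.79 (without treated replicate 1) to -0.27 (without treated replicate 2), and from 0.06 to 0.58 without the same libraries.

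The copy of mt.Co3 on chromosome 1, Gm28437, was 1234, 991 and 1002 in wild type, 911, 728 and 936 in saline mutants, and 1037, 736 and 819 with treatment. Although the sequences are identical over 783 bases, their ratio was not constant: mt.Co3 was 2.27 to 2.89 times its copy in wild type, 1.64 to 1.97 times in saline mutants and 1.85 to 2.70 times in treated mutants. With the copy's value added to the gene's, saline mutants were at 2409, 2127 and 2784 against 4678, 3239 and 3898 in wild type, a difference of -0.68 (log2; SE 0.165, limma adjusted p 0.0401).

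mt.Co1 (chromosome M, 5328 to 6872), which encodes the catalytic subunit of complex IV, had the highest value of all genes in each table. It was 102384, 88784 and 99550 in wild type, 84326, 81285 and 74852 in saline mutants, and 93288, 87270 and 93077 with treatment. Saline mutants were below both other groups without overlap, with a mean that was 82.7% of that in wild type, but the difference of -0.27 (SE 0.211) had a limma adjusted p of 0.541. This SE draws on a variance trend over all genes as well as on the spread of mt.Co1. It ran from 0.138 with a filter at a mean of 10 to 0.664 with median-of-ratios factors. For mt.Cytb the same settings gave 0.136 and 0.451. The absence of a call for mt.Co1 thus rests in part on that trend, although 0 of 18 alternatives called it. The treated mean was 94.1% of that in wild type, a log2 fold change of -0.09 (SE 0.135, limma adjusted p 0.854), and differed from saline mutants by 0.19 (SE 0.211).

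The remaining subunit of complex IV, mt.Co2 (chromosome M, 7013 to 7696), which holds the copper site that takes electrons from cytochrome c, was 2856, 1981 and 2371 in wild type, 2965, 1594 and 1541 in saline mutants, and 2121, 1488 and 1727 with treatment. The groups overlapped, and replicate 1 was the highest library in each of them. Differences from wild type were -0.29 in saline mutants (SE 0.253, limma adjusted p 0.595) and -0.43 in treated mutants (SE 0.177, limma adjusted p 0.373). The saline mutant difference ran from -0.60 (without saline mutant replicate 1) to -0.13 (without saline mutant replicate 3). Its copy Gm28661 was 703 to 1073, 651 to 873 and 411 to 904 in the 3 groups, in the order wild type, saline mutant and treated mutant.

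**Figure D3:**
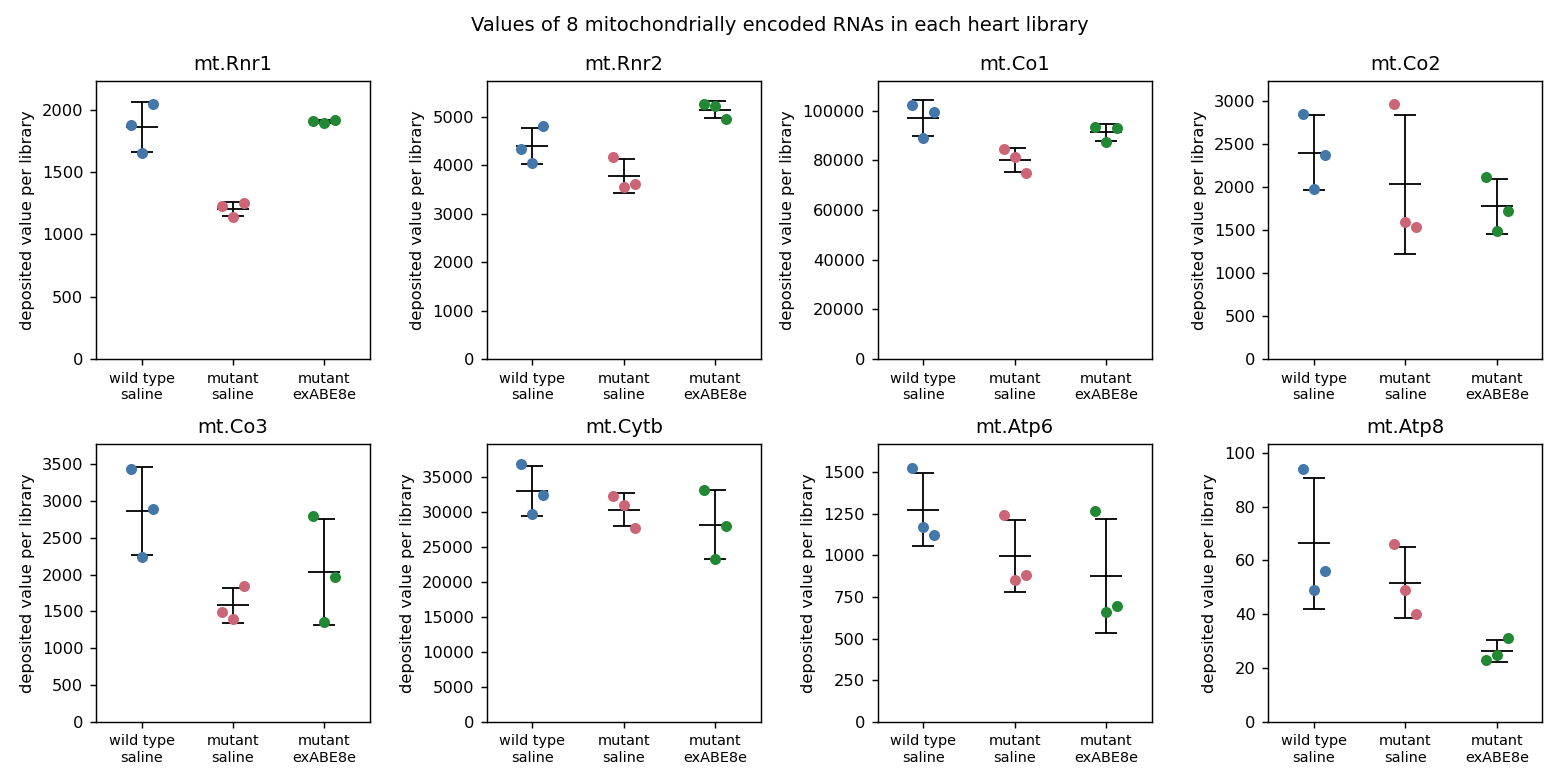
Deposited value in each of 9 libraries (points), with group mean and SD bars (n = 3), for the 8 RNAs, each on its own linear axis from 0. Saline mutants lie below wild type without overlap for mt.Rnr1, mt.Co1 and mt.Co3, and treated mutants lie below both other groups for mt.Atp8.

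mt.Cytb (chromosome M, 14145 to 15288), the only subunit of complex III encoded in mitochondria, differed least from wild type in saline mutants. Its values were 36798, 29720 and 32463 in wild type, 32233, 30955 and 27726 in saline mutants, and 33104, 23300 and 28016 with treatment, and the groups overlapped. The log2 fold changes from wild type were -0.12 (SE 0.179, limma adjusted p 0.77) and -0.24 (SE 0.166, limma adjusted p 0.61), and with 1 library left out they ran from -0.19 to -0.04 and from -0.36 to -0.11. The ratio of mt.Co1 to mt.Cytb, the pair of highest level, was 2.78 to 3.07 in wild type, 2.62 to 2.70 in saline mutants and 2.82 to 3.75 in treated mutants, so that saline mutants were below both other groups.

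mt.Atp6 (chromosome M, 7927 to 8607), a subunit of the proton channel of ATP synthase, was 1527, 1172 and 1125 in wild type, 1244, 855 and 883 in saline mutants, and 1269, 661 and 694 with treatment. The groups overlapped, with replicate 1 again the highest in each. Differences from wild type were -0.37 (SE 0.176, limma adjusted p 0.298) and -0.60 (SE 0.256, limma adjusted p 0.4), and the first ran from -0.54 to -0.23 with 1 library left out. Its copy Gm10925 had nearly the same value: mt.Atp6 was 1.02 to 1.12 times the copy in wild type, 0.889 to 0.967 times in saline mutants and 0.99 to 1.19 times in treated mutants.

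mt.Atp8 (chromosome M, 7766 to 7969), a small membrane subunit of the same enzyme, had the lowest values and differed most in treated mutants. It was 94, 49 and 56 in wild type, 66, 49 and 40 in saline mutants, and 23, 25 and 31 with treatment. The treated libraries were below all 6 others, and the saline groups overlapped. The treated mean was 39.7% of that in wild type, a log2 fold change of -1.25 (SE 0.242) with a limma adjusted p of 0.074, which misses the threshold; 2 of 18 alternatives called it (adjusted p from 0.0285 to 0.213). Without the libraries with Xist the difference was -0.89 (adjusted p 0.167). Saline mutants differed from wild type by -0.33 (SE 0.255, limma adjusted p 0.546; -0.05 without wild-type replicate 1 and -0.51 without saline mutant replicate 1), and treated from saline mutants by -0.93 (SE 0.194). The ratio of mt.Atp6, which shares its message, to mt.Atp8 was 55.2, 26.4 and 22.4 in treated mutants. It was 16.2 to 23.9 in wild type, which the treated libraries overlapped, and 17.4 to 22.1 in saline mutants, which they did not. The highest ratio is that of treated replicate 1 alone, and the treated ratios rest on mt.Atp8 values of 23 to 31.

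**Figure D4:**
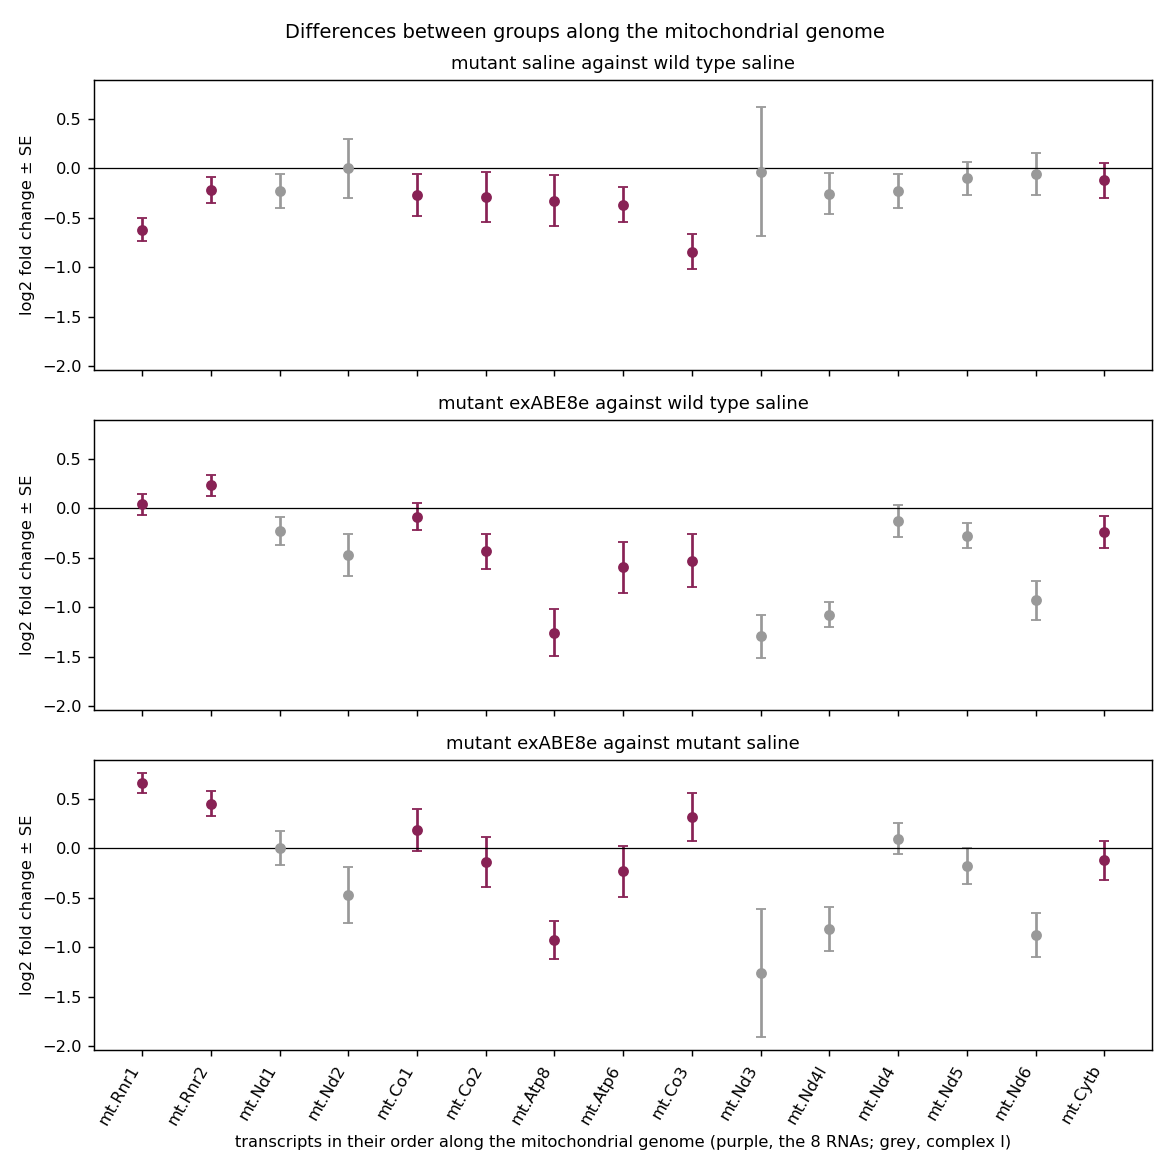
log2 fold change with its standard error for 15 mitochondrial transcripts in their order along the genome, in 3 comparisons of 3 against 3 libraries; purple marks the 8 RNAs described here and grey the complex I subunits. In saline mutants mt.Rnr1 and mt.Co3 lie lowest, at -0.62 and -0.84, and in treated mutants mt.Atp8 lies at -1.25 beside mt.Nd3 and mt.Nd4l, at -1.29 and -1.07.

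**Figure D5:**
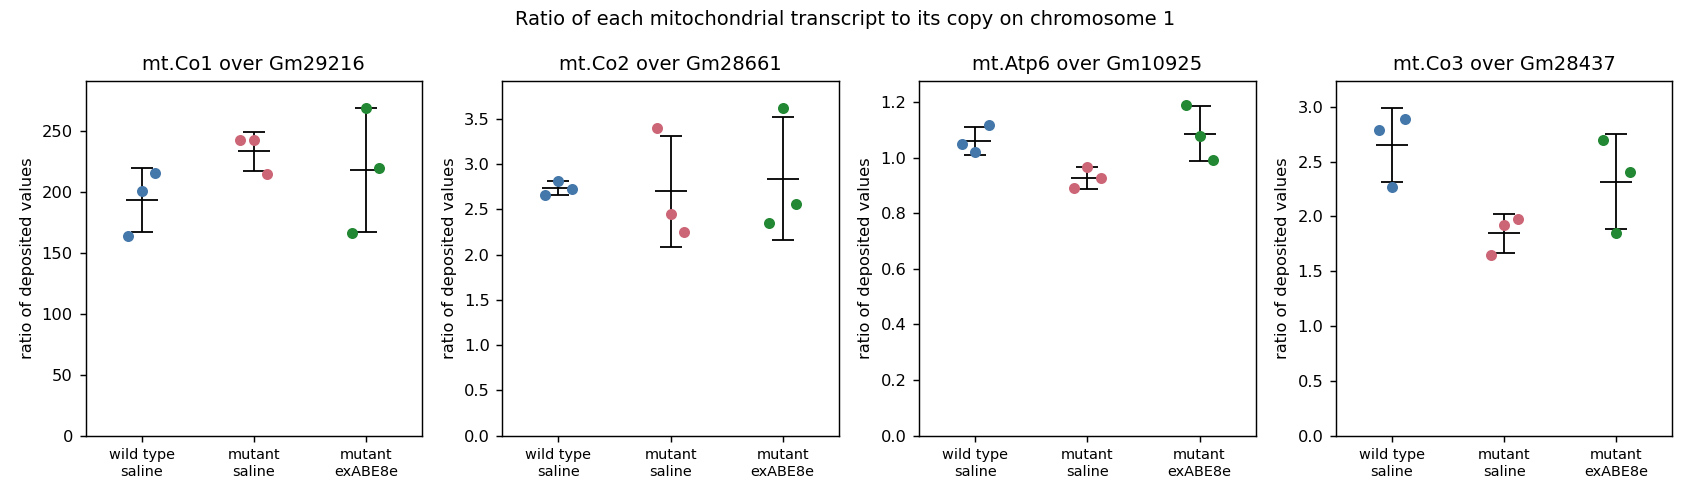
Ratio of the deposited value of each mitochondrial gene to that of its copy on chromosome 1 in each library (points), with group mean and SD bars (n = 3). Saline mutants lie below wild type without overlap for mt.Atp6 and mt.Co3, while the ratios of mt.Co1 and mt.Co2 overlap between all groups.

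The 8 RNAs did not vary as a single block from library to library. Over 9 libraries on the log2 scale, Pearson's r was 0.848 between the ribosomal RNAs, 0.829 between mt.Rnr1 and mt.Co1, 0.881 between mt.Cytb and mt.Atp6 and 0.853 between mt.Co2 and mt.Atp6. It was 0.0129 between mt.Rnr1 and mt.Cytb and -0.506 between mt.Rnr2 and mt.Atp8. These points share 3 groups and the same library totals, and they are given as a description. Of 8770 genes outside the mitochondrial genome with a mean value of at least 10, those most like mt.Rnr1 over the 9 libraries were Pank4 (r = 0.951), Sgca (0.951) and Mybpc3 (0.950). mt.Rnr1 was chosen in part by its difference between treated and saline mutants. Mybpc3, the mutated gene, differed between the same groups (1024 to 1374 against 133 to 186). The r values of mt.Rnr1 therefore reflect that choice in part and are no independent result. The genes most like mt.Rnr2 were Det1 (0.939), Gsk3a (0.884) and Klc2 (0.875). Those most like the mean of the 6 protein-coding members were Mrpl14 (0.944), Gm4459 (0.926) and Gm28661 (0.902), the copy of mt.Co2. Gm28661 is identical to mt.Co2, a member of that mean, over 681 bases, so its r is no independent result.

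The 7 complex I subunits of the same genome, given for comparison, had 0 calls in saline mutants (median -0.10; the smallest limma p was that of mt.Nd1, at 0.209 unadjusted) and 2 lower calls in treated mutants against wild type (median -0.47). Those were mt.Nd3 (-1.29, SE 0.217, limma adjusted p 0.0487) and mt.Nd4l (-1.07, SE 0.129, limma adjusted p 0.0258). The call of mt.Nd3 was lost in 13 of 18 alternatives (adjusted p up to 0.411), among them each of the 6 that leave out 1 library. That of mt.Nd4l was lost in 6 of 18 (up to 0.0945), among them those without wild-type replicate 1, 2 or 3 or treated replicate 2. In this comparison 4 of the 7 were lower without overlap, mt.Nd3, mt.Nd4l, mt.Nd5 (83.0% of the wild-type mean) and mt.Nd6 (52.6%). Of all genes tested there, 5.43% were lower without overlap and 0.125% were called as lower. The difference between the complex I subunits and the 8 RNAs was not tested. The only transfer RNA with a row, mt.Tp, was 86 to 114, 89 to 98 and 97 to 111 in the 3 groups.

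Among nuclear genes that make or mature these RNAs, 1 of 59 was called in saline mutants (1.69%, beside 7.7% of all genes). Of 18 tested genes of mitochondrial DNA maintenance and transcription, limma called 0 in saline mutants (median -0.04); the smallest p was that of Mterf2, a member of the family of mitochondrial termination factors (-0.45, unadjusted p 0.0185, adjusted p 0.142). Of 20 genes of mitochondrial RNA processing and decay, 1 was called: Hsd17b10, a subunit of the enzyme that cuts transfer RNAs from the precursor at their starts, which fell (log2 fold change -0.46, SE 0.102, limma adjusted p 0.0271) from 132, 113 and 122 in wild type to 92, 90 and 83. Treated mutants had 100, 99 and 97. The call was lost in 6 of 18 alternatives (adjusted p up to 0.11), among them those without wild-type replicate 1 or 3 and without saline mutant replicate 2 or 3. Of 21 genes for rRNA modification and ribosome assembly, 0 were called by limma in saline mutants, with 18 below 0 and a median of -0.13. Mrm1, a methyltransferase of the large-subunit rRNA, had the smallest p (-0.53, unadjusted p 0.00572, adjusted p 0.0667). Without overlap between the groups, 7 of these 21 were lower and 0 higher. Over all 59 genes 11 were lower and 3 higher, beside 8.78% lower and 12.8% higher of all genes tested.

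Of 84 genes for proteins of the mitochondrial ribosome, 2 were called in saline mutants, both lower (2.38%, beside 7.7% of all genes). Without overlap between the groups, 9 of 33 small-subunit and 9 of 51 large-subunit genes were lower (8.78% of all genes), 1 and 3 were higher, and 57 of the 84 were below 0. Limma called 0 of 33 for the small subunit, which holds mt.Rnr1 (median -0.05; Mrps35 had the smallest p, with -0.36, unadjusted p 0.00407 and adjusted p 0.0519). For the large subunit, which holds mt.Rnr2, 2 of 51 were called, both lower (median -0.05). These were Mrpl39 (72, 69 and 68 in wild type; 42, 46 and 49 in saline mutants; -0.60, SE 0.103, limma adjusted p 0.00874) and Mrpl28 (85, 79 and 85; 61, 64 and 52; -0.49, SE 0.111, limma adjusted p 0.0309). The call of Mrpl39 was lost only without saline mutant replicate 2 (0.0512), and that of Mrpl28 in 8 of 18 alternatives, among them each of the 6 that leave out 1 library (up to 0.122). The median over all genes was 0.07 in this comparison.

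The nuclear-encoded partners of the same complexes were mostly below 0 in saline mutants, where 7.7% of all genes were called. Lower without overlap between the groups were 4 of 15 genes of complex IV, 4 of 9 of complex III and 10 of 16 of ATP synthase. None was higher without overlap. Over all genes, 8.78% were lower and 12.8% higher without overlap. For complex IV 13 of 15 were below 0 (median -0.20) and 1 was called, Cox7a1, the heart and muscle form of a small subunit (294, 259 and 257 in wild type; 181, 185 and 133 in saline mutants; 228, 180 and 211 in treated mutants; -0.71, SE 0.14, limma adjusted p 0.0176); that call was lost in 2 of 18 alternatives, without wild-type replicate 1 (0.078) and with limma's trend and no rounding floor. For complex III limma called 0 of 9 (8 below 0, median -0.18; Uqcrc1 at -0.39, unadjusted p 0.00723, adjusted p 0.0769), and for ATP synthase 0 of 16 (14 below 0, median -0.18; Atp5f1 at -0.28, unadjusted p 0.0215, adjusted p 0.156). Of 17 genes for complex IV assembly and copper delivery, 1 was called and was higher: Cox19, a small twin-cysteine protein of copper delivery (42, 35 and 34 in wild type; 68, 73 and 63 in saline mutants; 67, 48 and 51 in treated mutants; 0.86, SE 0.12, limma adjusted p 0.00319), called in 18 of 18 alternatives.

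In treated mutants against wild type, limma called 0 genes in each of these nuclear lists, at 0.989% of all genes. The medians were -0.16 for complex IV (14 of 15 below 0), -0.15 for complex III (8 of 9) and -0.16 for ATP synthase (16 of 16). The smallest p-values were those of Mterf2 (-0.30), Hsd17b10 (-0.30), Rpusd4 (-0.25), Mrps15 (-0.27), Mrpl42 (-0.36), Uqcrq (-0.26), Cox7a1 (-0.39), Atp5g1 (-0.32) and Cox19 (0.56), with limma adjusted p-values from 0.189 to 0.422.

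Of 8 tested annotated nuclear copies, 2 were called in saline mutants, both of mt.Co1 and both lower: Gm13340 (267, 195 and 241 in wild type; 154, 136 and 151 in saline mutants; -0.66, SE 0.129, limma adjusted p 0.0165) and Gm29216 (624, 442 and 462; 348, 335 and 349; -0.55, SE 0.137, limma adjusted p 0.0457). Calls among all genes tested there came to 7.7%, with 3.14% lower and 4.56% higher. The call of Gm13340 was lost in 5 of 18 alternatives (adjusted p up to 0.0871), among them those without wild-type replicate 1 or 3 or saline mutant replicate 2. That of Gm29216 was lost in 10 of 17 (up to 0.168), among them 5 of the 6 that leave out 1 library, all but that without wild-type replicate 2. All 8 were below 0 against wild type in saline mutants (median -0.34) and in treated mutants (median -0.51), where limma called 0 and the smallest p was that of Gm10222, the copy of mt.Nd4l (-0.60, unadjusted p 0.00305, adjusted p 0.13).

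The authors' deposited table of selected genes for saline mutant against wild type holds mt.Rnr1 and mt.Co3 among 689 genes, with authors' deposited log2 fold changes of -0.70 and -0.94. The authors' deposited table for treated mutant against wild type holds mt.Atp8 among 317 genes (-1.36), and that for treated against saline mutant holds mt.Rnr1 (0.70) and mt.Atp8 (-0.95) among 137. The column named as an adjusted p-value in the authors' deposited tables equals the unadjusted normal p of their statistic, so a place in these lists does not mean passing a threshold adjusted over all genes.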

How the data were processed

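The submitters' processing notes name HISAT2, HTSeq, DESeq2 and mm10, without versions or roles. The deposited value per gene and library is used as a score: whole numbers, with nearly equal library totals, so the authors' unit was taken as a rounded per-million-like value and not as read counts; count models were not used. The authors' deposited log2 fold changes come from their own comparisons, as do the mean signal, the test statistic (a score) and the p-values in the deposited tables; only their log2 fold changes and lists are quoted. Values held by more than 1 table were equal in all of them.

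Each pair of groups had its own fit, with limma 3.58.1 (R 4.3.3), of log2(value + 1) for genes with a mean of at least 1 over 6 libraries; fold changes of low genes are understated on this scale. Residual variances were held at or above the rounding variance (1/12 on the value scale), and the prior degrees of freedom came from genes with a mean of at least 30. Genes were called at a Benjamini-Hochberg adjusted p under 0.05 over all genes tested. In simulated data, changed genes had a mean of at least 10 and a log2 change of 1 up or down. Their spread was smoothed over genes of similar level. The procedure recovered nearly all of these changed genes. Smaller changes were not simulated, so this recovery does not show that members without a call are unchanged. The share of false calls was above the adjusted threshold in most runs, so calls near the threshold are weaker than their adjusted p. Alternatives were another pseudocount (0.1), no filter or a mean of at least 10, other scalings, a replicate block, other variance priors, 1 fit over 9 libraries, and leaving out each library or those with Xist. The members, the 12 gene lists and the markers were chosen with earlier results of these data known. Named are all members, the complex I rows of the same genome and, per list, up to 3 called genes with the largest rise or fall or else the gene with the smallest p. Sequences are from GENCODE M21 transcripts (GRCm38); copies were found with BLAST+ 2.17.0 (alignments of at least 100 bases) and by exact 50-base windows on both strands.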

Additional observations from a re-analysis of the deposited data

How the results depend on the processing

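Depth is unknown, so precision rests on 3 libraries per group. Of 288 tested fits of members under 18 alternatives, 273 gave the call and direction reported, 2 gained a call, 7 lost one and 6 changed sign. The reversals were those of mt.Co2 (0.00451), mt.Cytb (0.0242) and mt.Atp8 (0.117) in saline mutants without the libraries with Xist, and of mt.Rnr1 in treated mutants against wild type with upper-quartile factors (-0.041), equal sums over non-mitochondrial rows (-0.00659) and without wild-type replicate 2 (-0.0422; up to 0.114 with 1 library left out). Of the 8 members, 1 was called in saline mutants (mt.Rnr1) with limma's trend and no rounding floor and in 1 fit over 9 libraries, and between 0 and 2 with 1 library left out; in treated mutants against wild type, 1 (mt.Atp8) was called with the prior from all genes and in 1 fit over 9 libraries.

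Of 448 fits of the named list genes, 383 gave the call and direction reported, 14 gained a call, 51 lost one and 0 changed sign. Counts over all genes moved more. The 1050 genes called in saline mutants were 556 without the libraries with Xist and 506 to 1029 with 1 library left out. Higher genes made up 59.2% of them, against 47.6% with upper-quartile factors. The 134 in treated mutants against wild type were 86 with no filter, 77 with no rounding floor, 243 with the prior from all genes, 236 in 1 fit over 9 libraries, 9 without the libraries with Xist and 1 to 133 with 1 library left out; 87.3% were higher, against 71.6% with upper-quartile factors. The 2 between treated and saline mutants were 6 with a filter at a mean of 10, 10 with median-of-ratios or upper-quartile factors, 32 with no rounding floor, 14 with the prior from all genes, 13 in 1 fit over 9 libraries and 2 to 8 with 1 library left out. The cause of these shifts was not tested. With the replicate number as a replicate block, 819, 35 and 30 genes were called in the 3 comparisons. Over genes with a mean of at least 10, same-numbered samples deviated together (correlation over 0.1) in 4 of 9 pairs, from -0.37 to 0.566. The numbers were therefore not taken to pair the samples. For treated mutants against wild type, the block changed SEs of members. It lowered those of mt.Co2 (0.177 to 0.0866), mt.Co3 (0.269 to 0.114) and mt.Atp6 (0.256 to 0.128), which stayed uncalled. Those of mt.Rnr2 (0.106 to 0.114) and mt.Co1 (0.135 to 0.192) rose. Adding nuclear copies to the members was chosen after seeing the data.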

Other observations

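Nearly identical sequences on chromosome 1 and in mitochondrial DNA took very different values in single libraries for mt.Nd3, a complex I subunit next to mt.Co3, chosen here after its values were seen. mt.Nd3 was 527 in saline mutant replicate 1 and 50 to 207 in the other 8 libraries, while its copy Gm28438, which differs from it by a single base over 345, was 661 in wild-type replicate 1 and 23 to 60 in the other 8. Replicate 1 held the highest value for 6 of the 8 RNAs in each of the 3 groups.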
